A study of Mus musculus with 36 samples.

Results

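Jejunal organoids kept in medium from senescent fibroblasts were compared with organoids kept in complete media, in 12 of the 36 RNA-seq libraries of the series, chosen by their treatment labels. The question was which genes, signaling programs and cell-type programs of the epithelium differ when the secretions of senescent cells are added. Intestinal organoids are epithelial structures that grow in Matrigel from isolated crypts, and they hold stem cells together with their differentiated progeny. Crypts of 6 C57BL/6 mice founded the cultures, and 6 libraries, numbered 1 to 6, came from each condition. The 6 control cultures received the commercial medium IntestiCult with an IgG antibody, here called complete media. The other 6 received the same medium mixed with senescent conditioned medium (SCM) and the same IgG. SCM is serum-free medium that had stood on growth-arrested, senescent mouse embryonic fibroblasts and was then filtered and concentrated. Senescence was induced by X-rays or doxorubicin in the study, and which of these was used for the sequenced cultures is not given in the sources used here, nor is the age of the mice. The organoids stayed in each medium for 2 days. Complete media contained no fibroblast medium at all, so the comparison holds the conditioning by fibroblasts and their senescence together, and these cannot be told apart in it. For this reason 6 libraries of organoids in medium from serum-deprived, quiescent fibroblasts (QCM), also with IgG, are set beside the main results. RNA was read in bulk, in which fewer cells of a type and less RNA per cell cannot be told apart.

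The adult small intestinal epithelium renews itself from Lgr5-expressing stem cells at the crypt base, which give rise to absorptive enterocytes and to goblet, Paneth, enteroendocrine and tuft cells. After injury, crypt cells can pass through a state in which adult stem cell genes are low and genes of the fetal epithelium are expressed again, and the transcriptional coactivator YAP is a known regulator of that state. Senescent cells no longer divide but secrete cytokines, growth factors, proteases and matrix proteins that act on their neighbors.

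The libraries held between 9581589 and 13470855 counts in complete media and between 10213464 and 17072397 in SCM, and 14862 to 15478 genes against 14952 to 16091 genes had at least 5 counts. Mitochondrial genes took 0.340% to 0.645% of the counts in complete media and 0.388% to 0.764% in SCM. The libraries were epithelial: Epcam, the epithelial adhesion molecule, ranged from 1807 to 1940.3 CPM (counts scaled to the same library total) in complete media and from 2439 to 2674 CPM in SCM. Most defining markers of other cells were at or near 0. The 12 fibroblast markers together held 0.366 to 6.00 CPM in complete media and 0.897 to 4.18 CPM in SCM, and the 6 endothelial markers 0 to 2.00 and 0 to 0.451 CPM. Leukocyte markers summed to 13.8 to 18.2 and 13.8 to 18 CPM, with the pan-leukocyte gene Ptprc at 0 and most of the sum in the macrophage receptor gene Csf1r, whose mean was 13.9 CPM in complete media and 13.6 CPM in SCM. Of the mast cell markers, whose sums were 0.188 to 0.805 CPM and 0.708 to 6.78 CPM, Mcpt2 was called higher in SCM with a log2 fold change of 4.45 ± 0.92, while Cpa3 and Tpsab1 were at 0, and its part in other results was not tested. In principal components of the 12 libraries, the first (29% of the variance) ran from -52.2 to -5.46 in complete media and from 3.15 to 82.4 in SCM, so the conditions did not overlap. SCM replicate 1 stood apart from all others on both the first component (82.4) and the second (58.7), and counts of list members called that change without it are given both ways.

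Calls required a fold change over 1.5 and an adjusted p under 0.05 in edgeR's quasi-likelihood test over 15497 genes with Benjamini-Hochberg adjustment. SCM raised 768 genes (4.96% of those tested) and lowered 174 (1.12%), so 81.5% of the calls were higher. Changes over 2-fold were held by 481 of the higher and 43 of the lower genes, and changes over 4-fold by 158 and 10. Without a test, the 6 and 6 libraries did not overlap for 3.76% of genes with SCM higher and for 2.53% with SCM lower. The split of the calls depended on the tool and the scaling together: with quantile normalization followed by voom and limma, the method the study states, 550 genes were higher and 297 lower, which is 64.9% higher. With voom and TMM scaling the counts were 652 and 195 (77.0% higher), and edgeR with 3 other scalings gave 79.0% to 81.0% higher. Without SCM replicate 1 the counts were 547 and 112. A mean under 1 CPM in complete media was held by 16.1% of the raised genes, 1 of the 174 lowered genes and 13.02% of all genes tested. Raised genes could pass the filter on low counts through other conditions, SCM among them, so these shares are a description only. The size of a change is loosely fixed at such low counts. The median log2 fold change over all genes was 0.01, and it is the background for the medians of gene lists, as 4.96% and 1.12% are for their counts of calls.

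Among protein-coding genes with a mean log2 CPM over 1 and no overlap between the conditions, Clu rose most. Clu encodes clusterin, a secreted chaperone that marks the revival stem cells of the injured intestine, and lies at chr14:65968483-65981547 (GRCm38). Its lowest, median and highest values were 19.8, 41.9 and 101 CPM in complete media and 604, 1093 and 1979 CPM in SCM. The lowest SCM library thus lay far above the highest library in complete media, and the fold change was 23.8 (log2 4.57 ± 0.46, SE; adjusted p = 1.41e-08). The laminin chain gene Lama3, whose product forms part of the epithelial basement membrane, came second, with a log2 fold change of 4.10 ± 0.56 (adjusted p = 5.07e-06) between 1.25 to 10.2 CPM and 37.3 to 119 CPM. Pmepa1, an inhibitor of TGF-beta signaling that is itself induced by TGF-beta (chr2:173224458-173276533), rose from a range of 6.66 to 15.2 CPM to 57 to 214 CPM (log2 3.55 ± 0.39, adjusted p = 7.98e-08).

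The other 9 rising genes of this ranking had log2 fold changes between 3.13 and 3.75. They were the adaptor Dok2, the keratin Krt27, Trim29, the ATP-gated channel P2rx2, the microtubule-binding Map6, the retinaldehyde dehydrogenase Aldh1a3, Vill of the villin family, the annexin Anxa8 and the digestive protease gene Ctrb1. Dok2, Trim29, Krt27 and Aldh1a3 were close to absent in complete media, where each had a library at 0 CPM, and reached 3.91 to 22.5, 2.86 to 22.2, 2.80 to 18.5 and 4.84 to 27.9 CPM in SCM. The value of Aldh1a3 depended on SCM replicate 1: its log2 fold change was 3.38 with that library and 2.79 without it. Ctrb1 had the smallest standard error of these genes, at 3.85, 10.8 and 15.3 CPM in complete media and 48.9, 96.3 and 115 CPM in SCM (log2 3.13 ± 0.31, adjusted p = 7.46e-09).

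The falling genes of the same ranking had smaller changes. Ntn4, which encodes the laminin-related netrin-4 of basement membranes and lies at chr10:93640681-93747207, fell most. Its values were 14.2, 15.3 and 19.8 CPM in complete media and 0.0651, 2.60 and 3.56 CPM in SCM, a log2 fold change of -2.90 ± 0.40 (adjusted p = 6.56e-06). The apical citrate and succinate carrier Slc13a2 (chr11:78397087-78422217) followed, with 9.16, 14.4 and 17.1 CPM against 0.498, 1.64 and 6.06 CPM (log2 -2.38 ± 0.47, adjusted p = 7.62e-04). Netrin-4 and this carrier were thus reduced in each of the 6 SCM libraries, to different degrees. Slc5a11, a sodium-coupled inositol transporter, had a log2 fold change of -2.34 ± 0.74, but its call was lost in 6 of the 12 fits that each left out 1 library, without complete media replicates 2, 3 or 4 or SCM replicates 1, 4 or 6, with adjusted p up to 0.0728. The deubiquitinase Usp2, a known output of the circadian clock, fell by 1.84 on the log2 scale. Brush border peptidases were also in this group: Anpep (aminopeptidase N) held 112 to 147 CPM in complete media and 22.9 to 63.3 CPM in SCM (log2 -1.46 ± 0.25, adjusted p = 1.24e-04), and Ace fell by 1.28. The remaining falling genes of the ranking were Gm12888, the folate enzyme Aldh1l2, the fatty acid hydroxylase Cyp4b1, the disulfide isomerase family member Agr3, the guanine nucleotide exchange factor Vav3 and the kinase Mylk3, with log2 fold changes from -1.77 to -1.23.

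**Figure D1:**
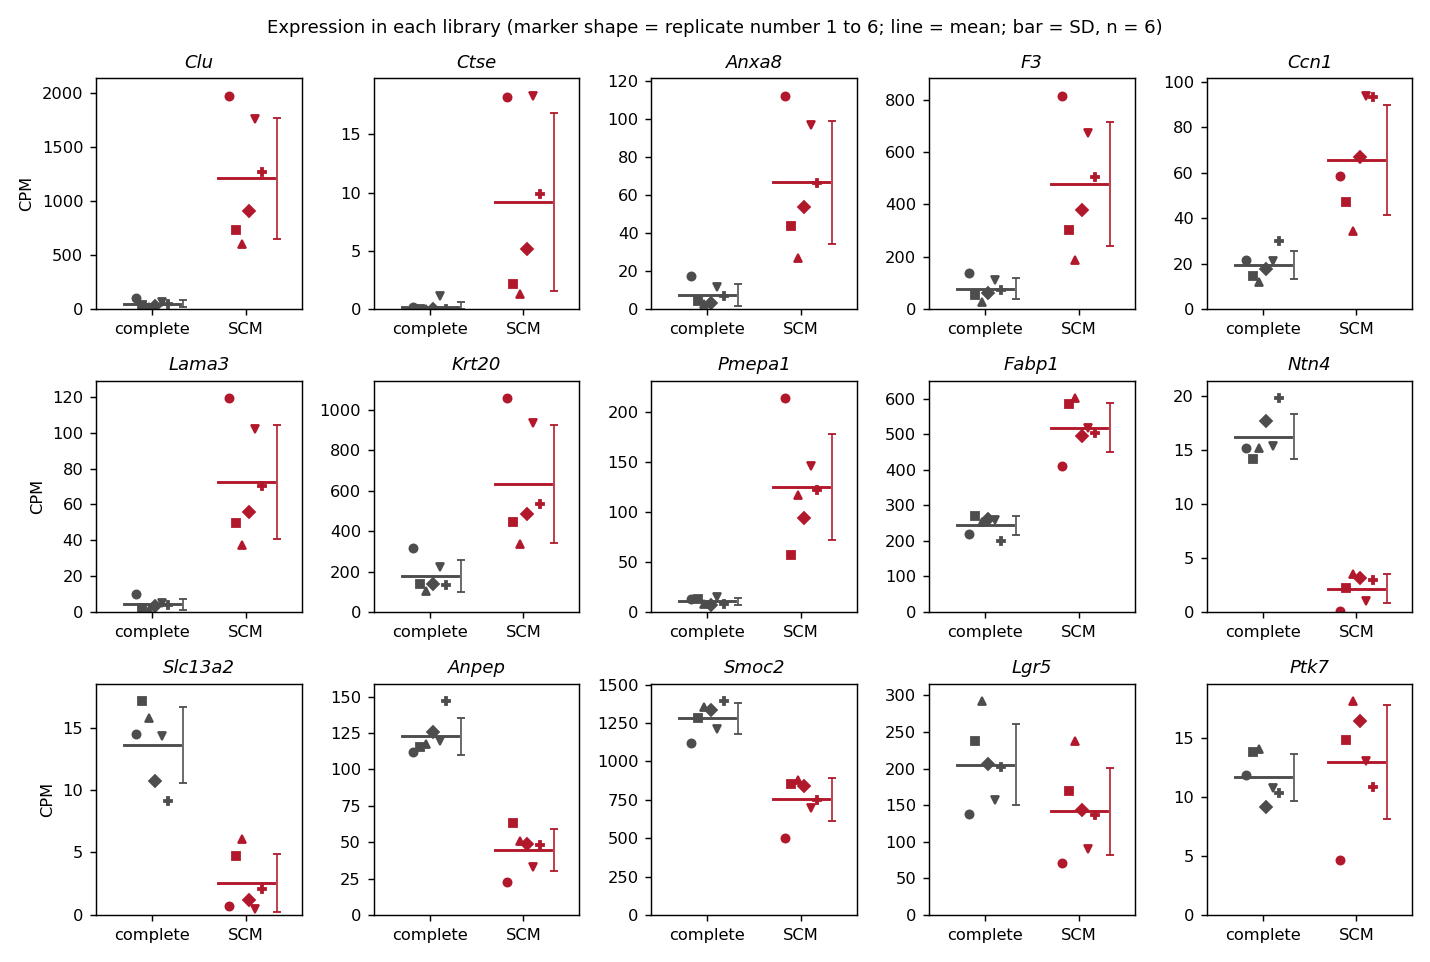
Each panel plots 1 of 15 genes in CPM on a linear axis from 0, with 1 point per library for the 6 libraries of complete media and the 6 of SCM, marker shapes for replicate numbers 1 to 6, a line at the mean and a bar for the SD (n = 6). Clu, Pmepa1, Lama3 and Fabp1 separate fully upward, Ntn4, Slc13a2, Anpep and Smoc2 separate fully downward, and Lgr5 and Ptk7 overlap.

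Genes of the fetal and regenerating epithelium rose nearly as a whole. Of 14 such genes tested (2 others, Gja1 and Spp1, were below the filter on low counts), 13 were called higher and 0 lower, and their median log2 fold change was 1.56. Without SCM replicate 1 the count was 9 and the median 1.31. The largest fitted change of the list was that of Ctse, a gastric aspartic protease, which was at 0 in 4 of 6 libraries in complete media and reached 1.28 to 18.3 CPM in SCM (log2 5.29 ± 0.96, adjusted p = 2.80e-04). Such a fitted change rests on very few counts in complete media and is no bound. Genes with more counts give firmer values. Anxa1, an annexin with anti-inflammatory roles, held 69.8, 169.5 and 362 CPM in complete media and 311, 589 and 1185 CPM in SCM (log2 1.69 ± 0.38, adjusted p = 0.0027). Anxa10 rose by 1.89 and Ly6d by 1.70 on the log2 scale. Ly6a, which encodes Sca-1, the antigen used to sort regenerating crypt cells, was called with a log2 fold change of 1.00 ± 0.29 (adjusted p = 0.021). Its call was lost without complete media replicates 2, 3 or 4 or SCM replicate 1, with adjusted p up to 0.125. The ranges of Ly6a, 56.1 to 228 CPM and 167 to 488 CPM, overlapped.

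Summed over the list, fetal and revival genes held 763 to 2823 CPM in complete media and 2906 to 9146 CPM in SCM. The lowest SCM library was therefore just above the highest library in complete media. The library with the highest sum was replicate 1 in both media. Between libraries of the same replicate number, the ratio of SCM to complete media ran from 3.14 to 3.81.

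YAP/TEAD targets followed. YAP and its paralog TAZ, the product of Wwtr1, are held in the cytoplasm by the Hippo kinases and, once nuclear, bind TEAD factors at promoters and enhancers. Of 19 targets tested, 10 were called higher and 0 lower, with a median of 1.44. The count was 8 without SCM replicate 1 and 6 without complete media replicate 2. Ccn1 (Cyr61), a secreted matricellular protein, had the lowest adjusted p of the targets, with 11.8, 19.3 and 29.8 CPM in complete media and 34.3, 62.8 and 94 CPM in SCM, with no overlap (log2 1.75 ± 0.28, adjusted p = 5.38e-05). Ccn2, also known as connective tissue growth factor, had a log2 fold change of 2.27 ± 0.51 (adjusted p = 0.0027). F3 encodes tissue factor, the initiator of coagulation, and held 27.9, 68 and 137 CPM against 186, 441 and 815 CPM (log2 2.62 ± 0.44, adjusted p = 8.63e-05). Igfbp3, an insulin-like growth factor binding protein, rose by 2.42 on the log2 scale from 0 to 1.46 CPM to 0.933 to 6.64 CPM. The ecto-nucleotidase gene Nt5e and the phosphatase gene Ptpn14 were called at low counts, with log2 fold changes of 2.84 ± 0.87 and 2.51 ± 0.82. Nt5e lost its call in 5 of the 12 fits without 1 library (complete media replicates 2, 3 and 4, SCM replicates 1 and 5; adjusted p up to 0.0818) and Ptpn14 in 8 (complete media replicates 1 to 5, SCM replicates 1, 5 and 6; adjusted p up to 0.0947).

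The genes of the pathway itself gave fewer calls. Of 18 Hippo core and TEAD genes, 3 were called higher and 0 lower, and their median was 0.15; the count was 5 without complete media replicate 1 or SCM replicate 2 and 2 without complete media replicate 2, 3 or 4 or SCM replicate 1. Yap1 RNA held 50.6 to 72.6 CPM in complete media and 46.3 to 85.8 CPM in SCM (log2 -0.02 ± 0.15, adjusted p = 0.96), and the sign of this small difference turned in 4 of the 12 fits that left out 1 library, all with values of at most 0.05. The genes called were Tead4, a TEAD factor, with a log2 fold change of 1.92 ± 0.36 (adjusted p = 4.10e-04), Amotl1, an angiomotin that binds YAP, with 2.96 ± 0.59, and Wwtr1 with 1.65 ± 0.51. Wwtr1 lost its call without complete media replicates 2, 3 or 4 or SCM replicate 1 (adjusted p up to 0.107).

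Start-site sequences of a few of these genes are shown to place the YAP/TEAD targets beside rising and falling genes of the ranking. Clu and Pmepa1 have no entry in the promoter table. The rising genes shown, Krt27 and Vill, are thus not those with the largest changes. Each runs 5′ to 3′ on the strand of the gene from 250 bases before to 50 bases after the start, in RefSeq's GRCm38.p6, and capitals mark matches on either strand to GGAATG (the core bound by TEAD factors; CATTCC on the other strand) or to TGANTCA (the AP-1 site, the same on both strands). The targets Ccn1 and Ptpn14 were added after their match was seen.
Ccn1, chr3:145649936-145650235, minus strand: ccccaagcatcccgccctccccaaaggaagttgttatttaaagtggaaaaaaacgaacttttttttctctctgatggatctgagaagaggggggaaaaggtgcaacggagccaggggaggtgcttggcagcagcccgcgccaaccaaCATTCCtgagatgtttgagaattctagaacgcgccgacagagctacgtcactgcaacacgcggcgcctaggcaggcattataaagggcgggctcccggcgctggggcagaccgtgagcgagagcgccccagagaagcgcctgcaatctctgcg
Ptpn14, chr1:189728018-189728317, plus strand: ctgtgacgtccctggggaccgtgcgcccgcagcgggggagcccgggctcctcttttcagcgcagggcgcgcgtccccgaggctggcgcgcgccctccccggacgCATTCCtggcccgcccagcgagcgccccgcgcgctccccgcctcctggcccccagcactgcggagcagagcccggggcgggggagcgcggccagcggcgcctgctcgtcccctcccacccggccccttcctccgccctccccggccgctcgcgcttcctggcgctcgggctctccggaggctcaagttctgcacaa
F3, chr3:121723287-121723586, plus strand: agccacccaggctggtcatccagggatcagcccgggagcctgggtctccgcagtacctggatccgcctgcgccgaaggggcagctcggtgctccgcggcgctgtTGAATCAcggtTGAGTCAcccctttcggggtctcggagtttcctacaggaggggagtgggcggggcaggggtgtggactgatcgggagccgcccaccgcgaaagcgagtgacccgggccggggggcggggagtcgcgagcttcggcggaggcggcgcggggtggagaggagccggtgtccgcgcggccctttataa
Nt5e, chr9:88327359-88327658, plus strand: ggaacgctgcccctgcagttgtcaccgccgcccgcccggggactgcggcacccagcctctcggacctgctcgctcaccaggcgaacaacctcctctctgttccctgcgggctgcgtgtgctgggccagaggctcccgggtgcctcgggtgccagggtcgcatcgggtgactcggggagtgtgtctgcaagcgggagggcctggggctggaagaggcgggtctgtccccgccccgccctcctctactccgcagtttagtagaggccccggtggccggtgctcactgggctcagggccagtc
Krt27, chr11:99351069-99351368, minus strand: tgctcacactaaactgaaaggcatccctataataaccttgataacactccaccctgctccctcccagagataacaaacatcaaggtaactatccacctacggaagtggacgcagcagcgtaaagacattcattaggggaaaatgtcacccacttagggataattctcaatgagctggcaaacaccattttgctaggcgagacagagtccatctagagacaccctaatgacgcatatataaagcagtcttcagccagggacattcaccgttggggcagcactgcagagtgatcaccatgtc
Vill, chr9:119052528-119052827, plus strand: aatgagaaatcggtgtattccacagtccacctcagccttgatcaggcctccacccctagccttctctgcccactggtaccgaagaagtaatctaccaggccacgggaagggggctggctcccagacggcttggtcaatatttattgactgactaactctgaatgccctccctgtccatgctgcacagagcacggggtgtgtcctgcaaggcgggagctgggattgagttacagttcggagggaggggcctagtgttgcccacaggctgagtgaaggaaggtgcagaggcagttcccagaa
Ntn4, chr10:93640799-93641098, plus strand: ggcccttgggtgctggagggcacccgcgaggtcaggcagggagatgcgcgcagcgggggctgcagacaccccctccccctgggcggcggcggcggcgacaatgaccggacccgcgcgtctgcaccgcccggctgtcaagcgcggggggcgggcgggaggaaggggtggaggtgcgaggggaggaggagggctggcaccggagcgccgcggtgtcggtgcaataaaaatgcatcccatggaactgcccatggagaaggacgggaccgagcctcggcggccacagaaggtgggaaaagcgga
Slc13a2, chr11:78422185-78422484, minus strand: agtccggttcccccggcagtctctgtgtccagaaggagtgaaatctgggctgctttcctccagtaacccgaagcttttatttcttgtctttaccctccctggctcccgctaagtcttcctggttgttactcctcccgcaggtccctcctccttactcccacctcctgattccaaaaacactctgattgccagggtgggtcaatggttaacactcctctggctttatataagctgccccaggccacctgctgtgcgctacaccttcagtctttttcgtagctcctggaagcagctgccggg

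The windows of Ccn1 and Ptpn14 hold GGAATG at positions that begin -103 and -146 bases from the start site, and that of F3 holds TGANTCA at -146 and -135. The other 5 windows hold neither. Of 10482 tested genes with an entry in the promoter table, 12.15% hold GGAATG, and so do 14.86% of the 552 genes called higher, 9.244% of the 119 called lower and 7 of 13 YAP/TEAD targets. Ccn1, Amotl2, Ajuba and Ptpn14 of these 7 were called higher, and Lats2, Axl and Crim1 were not called. TGANTCA is in 5.142% of all windows, 9.964% of those called higher, 5.042% of those called lower and 1 of the 13 YAP/TEAD targets. The E-box CACGTG, taken as a comparison, is in 10.26%, 5.254% and 6.723%, and in 2 of the 13 targets. These shares were not tested, and a match is a description of the letters only.

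Keratins are the intermediate filament proteins of epithelia. Of 11 tested, 10 were called higher (8 without SCM replicate 1) and 0 lower, with a median of 1.37. Krt15 was not called, and Krt5, Krt13 and Krt17 were below the filter. The keratins of simple epithelia had high counts in both media. Krt19 held 2579, 3064 and 4283 CPM in complete media and 4326, 5815 and 8427 CPM in SCM (log2 0.95 ± 0.22, adjusted p = 0.0029), Krt8 had a log2 fold change of 1.08 ± 0.22 and Krt7 of 1.37 ± 0.27. Krt20, a marker of differentiated surface cells, moved further, from 105, 139 and 315 CPM to 339, 511 and 1056 CPM (log2 1.84 ± 0.39, adjusted p = 0.0015). Krt23 rose by 1.48 on the log2 scale. Keratins of stratified epithelia were close to 0 in complete media. Krt14, a basal cell keratin of skin, was at 0 in 4 of 6 libraries there and at 0.816 to 3.06 CPM in SCM (adjusted p = 0.001), and Krt6a went from 0.146 to 1.77 CPM to 1.94 to 8.99 CPM (adjusted p = 0.006).

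Genes of the cornified envelope of squamous epithelia gave 7 called higher of 12 tested and 0 lower, with a median of 1.54. The count was 3 without complete media replicate 2, 3, 4 or 6 or SCM replicate 1, and most members had few counts. Sprr2a3, a small proline-rich protein gene, had more, at 17.7, 23.7 and 46.7 CPM against 143, 178 and 324 CPM (log2 2.89 ± 0.31, adjusted p = 6.14e-08). It belongs to a cluster of near-identical copies among which reads may be shared, so its value is uncertain for the single copy. Lor, which encodes loricrin, had a log2 fold change of 1.64 ± 0.42 (adjusted p = 0.0086). Cnfn (cornifelin) rose from 0 to 3.55 CPM to 1.05 to 22.1 CPM, yet its log2 fold change of 3.21 dropped to 2.18 without SCM replicate 1, and its call was lost without that library or complete media replicate 2, 3, 4 or 6 (adjusted p up to 0.162).

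Genes characteristic of the gastric mucosa had few counts, except Anxa10. Of 8 tested, 5 were called higher and 0 lower, with a median of 1.91, and the count was 5 in each of the 12 fits without 1 library. Ctse and Anxa10, described above, are members of this list too. Gkn3, a gastrokine, held 0.417, 1.85 and 2.73 CPM in complete media and 5.93, 8.25 and 12.7 CPM in SCM (log2 2.31 ± 0.26, adjusted p = 1.58e-07), without overlap. Tff1, the trefoil peptide of gastric surface cells, had a log2 fold change of 3.01 ± 0.84 and a highest value of only 5.98 CPM, and the stomach-enriched immunoglobulin family member Vsig1 one of 1.93 ± 0.40. The mucin genes Muc5ac and Muc6, which define gastric mucous cells, were below the filter.

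Annexins and S100 proteins, 2 families of calcium-binding proteins at membranes and the cytoskeleton, had 16 of 21 members called higher (14 without SCM replicate 1) and 0 lower, with a median of 1.39. S100a6 held 114, 229.5 and 568 CPM in complete media and 605, 1003 and 2317 CPM in SCM (log2 2.07 ± 0.35, adjusted p = 1.07e-04). S100a14 went from 8.17 to 41.5 CPM to 51.9 to 184 CPM and Anxa8 from 2.67 to 17.4 CPM to 27 to 112 CPM, both without overlap. The families did not move as a block, since Anxa4, Anxa9, Anxa11, Anxa13 and S100a4 were not called.

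Matrix and adhesion genes included both the second strongest rise and the strongest fall of the ranking above. Of 21 tested, 10 were called higher (7 without SCM replicate 1) and 1, Ntn4, lower, and the median was 0.85. Of the laminin chains, which anchor epithelia to the basement membrane, Lama3 is described above and Lama5 had a log2 fold change of 1.46 ± 0.37. Thbs1, which encodes the matricellular thrombospondin-1, rose from 12.8 to 33.5 CPM to 51.3 to 97.3 CPM (log2 1.84 ± 0.30, adjusted p = 6.30e-05). The integrin subunit Itgb5 had the lowest adjusted p of the list, at 9.21, 15.4 and 18.6 CPM and 28.6, 39.1 and 50.2 CPM (log2 1.47 ± 0.19, adjusted p = 1.22e-06). Itgb1, the common beta subunit, was not called, with 322 to 362 CPM against 395 to 454 CPM and an adjusted p of 0.17, although its libraries did not overlap.

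Genes of the actomyosin cytoskeleton gave 8 called higher of 22 (6 without SCM replicate 1) and 0 lower, with a median of 0.49. The membrane-actin linker moesin (Msn) had the largest log2 fold change, 2.98 ± 0.59, from at most 2.09 CPM. The filamin Flna, which crosslinks actin, had a log2 fold change of 1.03 ± 0.29, Cnn2 (calponin-2) one of 1.57 ± 0.31, and Actb one of 0.86 ± 0.20 with 1169 to 2038 CPM against 2031 to 3818 CPM. Among 16 tight junction genes, 4 were called higher and 0 lower. Cldn4 went from 88.6, 167 and 203 CPM to 377, 515 and 837 CPM (log2 1.93 ± 0.33, adjusted p = 1.23e-04), Jam2 had a log2 fold change of 4.22 ± 0.85 from under 1 CPM, and F11r, the junctional adhesion molecule A, one of 0.68 ± 0.14.

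**Figure D2:**
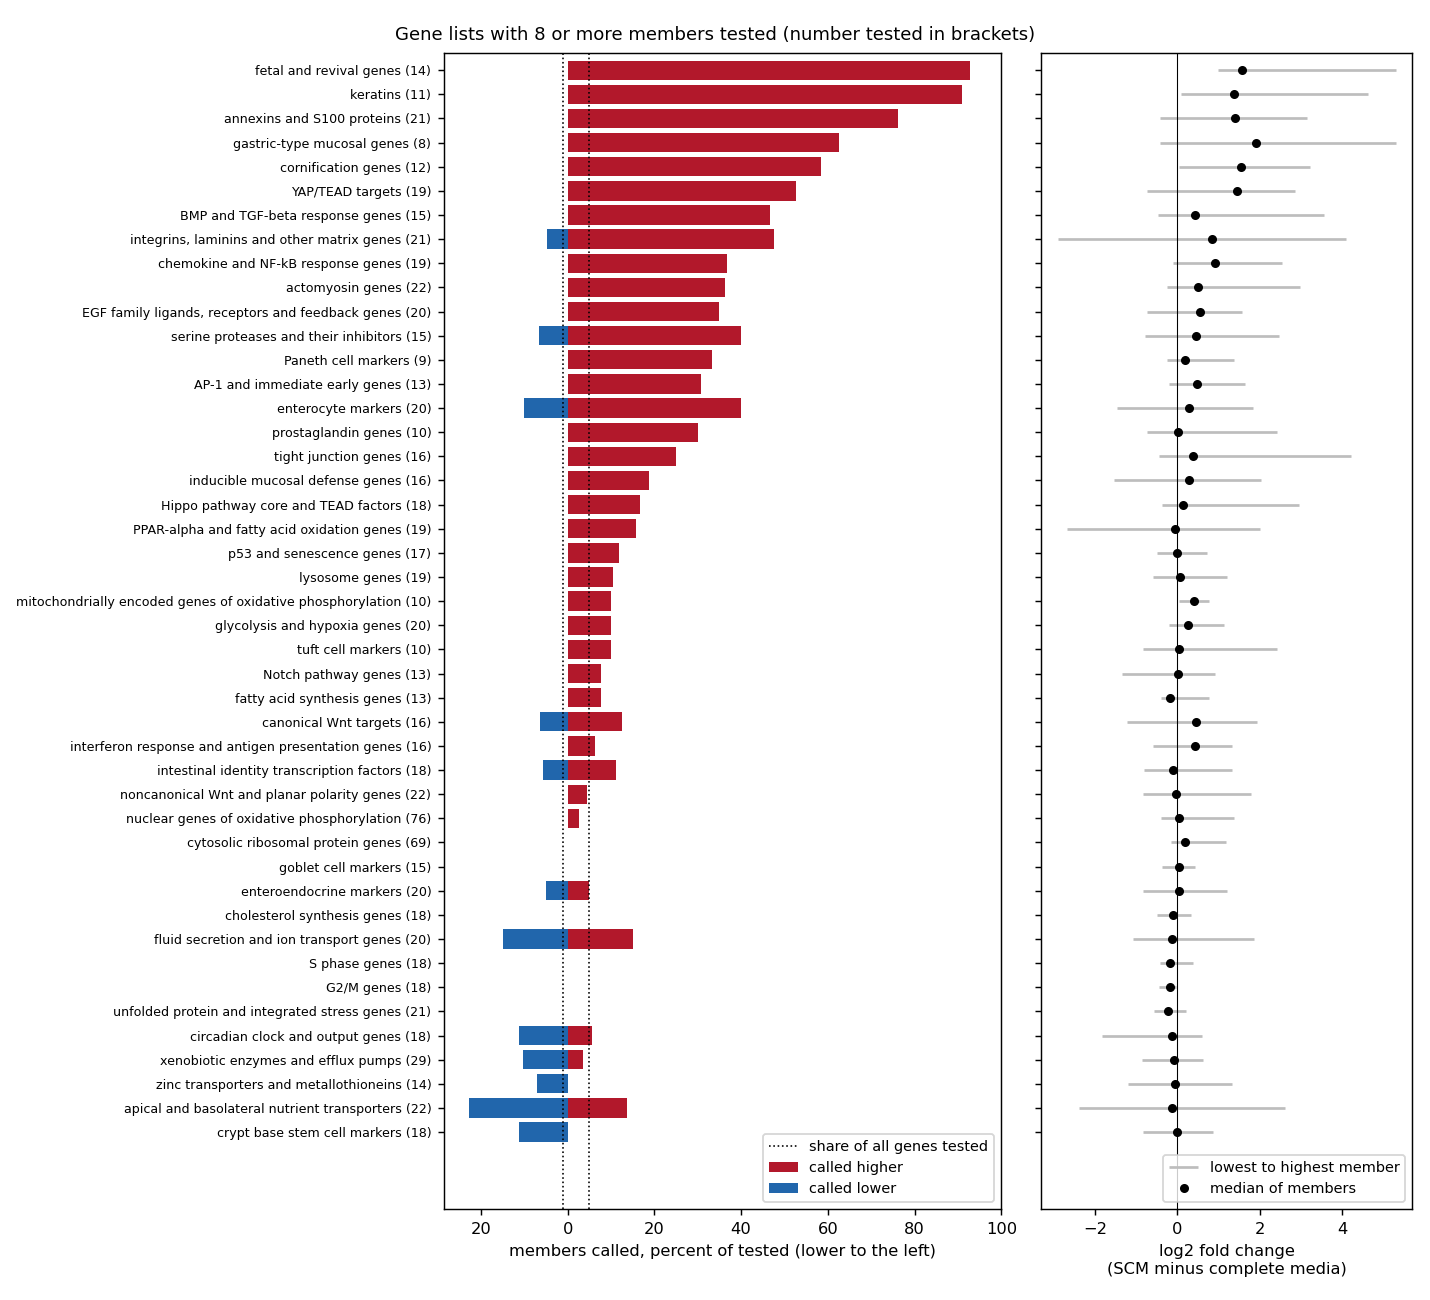
For each gene list with 8 or more members tested, the left panel plots the percent of tested members called higher (to the right) and lower (to the left), with dotted lines at the shares of all genes tested, 4.96% and 1.12%. The right panel plots the median (point) and the lowest to highest member (line) of the log2 fold change, SCM minus complete media, and shows medians over 1 for fetal and revival genes, YAP/TEAD targets, keratins, cornification and gastric-type genes, and annexins and S100 proteins.

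Of 15 tested genes of the BMP and TGF-beta response, 7 were called higher and 0 lower, with a median of 0.43, and the count was 6 or 7 in each fit without 1 library. Id1, a direct target of BMP-activated Smads, held 8.02, 8.60 and 14.1 CPM in complete media and 24.4, 30.6 and 33.3 CPM in SCM (log2 1.68 ± 0.16, adjusted p = 5.10e-09). The Smad antagonist Skil was at 11.7, 13.4 and 20.4 CPM and 52.8, 57.9 and 71.1 CPM (log2 2.05 ± 0.19, adjusted p = 2.08e-09). Neither gene's libraries overlapped between the media, and both adjusted p-values are among the lowest of the named genes. The inhibitory Smads rose too, Smad7 by 2.15 and Smad6 by 2.13 on the log2 scale, as did Pmepa1, described above. The BMP target Id2 passed the test below the fold-change threshold (log2 0.42 ± 0.12, adjusted p = 0.014). Another BMP target, Id3, did not pass it (log2 -0.48 ± 0.24, adjusted p = 0.20). The TGF-beta target Tgfbi and the receptor genes Bmpr1a, Bmpr2, Tgfbr1 and Tgfbr2 were not called.

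Of 20 genes of the EGF family and its feedback, 7 were called higher and 0 lower, with a median of 0.55, and the count without SCM replicate 1 was 4. The ligands Hbegf, Btc and Areg, which drive crypt cell proliferation through the EGF receptor, had log2 fold changes of 1.03 ± 0.22, 0.89 ± 0.20 and 1.14 ± 0.31. Areg was not called without SCM replicate 1 (adjusted p = 0.0509). The Btc libraries did not overlap, at 25.8 to 50.6 CPM against 51.8 to 101 CPM. Egfr, the receptor, was at the edge of the threshold (log2 0.91 ± 0.31, adjusted p = 0.047) and lost its call in 10 of the 12 fits without 1 library, with adjusted p up to 0.102. The exceptions were the fits without complete media replicate 1 and without SCM replicate 3. Phlda1, a feedback gene, rose by 0.93.

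Immediate early genes gave 4 called higher of 13 and 0 lower. Fos, a subunit of AP-1, ranged from 27.2 to 52.3 CPM in complete media and from 57.3 to 227 CPM in SCM (log2 1.65 ± 0.35, adjusted p = 0.0016), Junb had a log2 fold change of 0.95 ± 0.21, and Ier3 and Klf6 had 1.43 ± 0.30 and 1.24 ± 0.29. Jun passed the test with an adjusted p of 0.042 but not the fold-change threshold, at a log2 fold change of 0.47 ± 0.15.

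Among 19 chemokine and NF-kB response genes, 7 were called higher and 0 lower, with a median of 0.92, and 4 without complete media replicate 3. Tnfrsf11b, the decoy receptor osteoprotegerin, held 4.09, 7.64 and 11.1 CPM in complete media and 29.7, 38.5 and 41 CPM in SCM (log2 2.27 ± 0.25, adjusted p = 9.24e-08). Its groups were far apart. The chemokine Cxcl16 rose by 1.47, the epithelial cytokine Il18 by 1.34, and the NF-kB inhibitor Tnfaip3 (A20) by 1.11 on the log2 scale. The transcription factor Irf1 was the member called higher among 16 interferon and antigen presentation genes, at 5.36 to 16.7 CPM against 22.6 to 31.3 CPM (log2 1.27 ± 0.19, adjusted p = 1.65e-05), and 2 were called higher without complete media replicate 1, 2 or 6. The share of 6.25% is near the 4.96% of all genes tested. No member was called lower, but 1 was without complete media replicate 2 or 6 or SCM replicate 1, 3 or 5. Of 10 prostaglandin genes, 3 were called higher (2 without complete media replicate 3) and 0 lower. The prostaglandin synthase Ptgs2 (COX-2) rose from 1.17 to 5.06 CPM to 10.7 to 19.7 CPM (log2 2.17 ± 0.47, adjusted p = 0.0018), and the prostaglandin E2 receptor Ptger4 by 1.03. Of 15 serine proteases and their inhibitors, 6 were called higher (4 without complete media replicate 3 or SCM replicate 1) and 1 lower. Among the inhibitors, Serpinb5 (maspin) went from 13.8 to 85.5 CPM to 74.9 to 313 CPM and Wfdc2 from 1.08 to 10.5 CPM to 9.79 to 45.3 CPM, while Spint1 and Spint2 were not called. The protease Prss22 had a log2 fold change of 2.48 ± 0.51. Prss23 was called lower, from 70.5 to 85.2 CPM to 39.1 to 49.4 CPM.

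Enterocyte genes changed in both directions. Of 20 markers, 8 were called higher and 2 lower, with a median of 0.29. The fatty acid binding protein gene Fabp1 held 201, 256 and 269 CPM in complete media and 409.9, 510.2 and 600.4 CPM in SCM (log2 1.09 ± 0.15, adjusted p = 7.71e-06), and the apolipoprotein gene Apoa4 had a log2 fold change of 1.15 ± 0.17 (adjusted p = 1.26e-05). The apolipoprotein genes Apoa1 and Apob of the list were also called higher, and Fabp2, Mttp and Dgat1 were not called. Alpi, the intestinal alkaline phosphatase of the brush border, was at 42.7 to 69.4 CPM against 108 to 173 CPM (log2 1.26 ± 0.16, adjusted p = 2.12e-06). The brush border peptidase Anpep, described above, was among the markers that fell. The lower count was 1 without complete media replicate 2 or SCM replicate 1.

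Nutrient transporters, which sit in the apical and basolateral membranes of enterocytes, had 3 of 22 called higher (13.6%, against 4.96% of all genes tested) and 5 lower (22.7%, against 1.12%), with a median of -0.13. The lower count was 3 without complete media replicate 2, 3, 4 or 6 or SCM replicate 1, 4 or 6. Beside Slc13a2, the peptide transporter Slc15a1 (log2 -1.21 ± 0.33) and the neutral amino acid transporter Slc6a19 (log2 -0.81 ± 0.21) fell. The glucose transporter Slc5a1 was not called, at 395 to 662 CPM against 238 to 479 CPM (adjusted p = 0.063), but was called lower without complete media replicate 1 or 5 or SCM replicate 2 or 3. Rising members were the phosphate transporter Slc34a2, at 9.42, 12.7 and 16.6 CPM and 37.4, 42.7 and 51.2 CPM (log2 1.78 ± 0.16, adjusted p = 1.13e-09), the folate transporter Slc46a1, by 1.14, and the nucleoside transporter Slc28a2, by 2.61. Fluid and ion transport genes were divided likewise, with 3 of 20 higher and 3 lower (2 lower without complete media replicate 2 or 5 or SCM replicate 1, and 2 higher without complete media replicate 3). The calcium-activated chloride channel Ano1 rose from 24.6 to 82.3 CPM to 121 to 267 CPM (log2 1.86 ± 0.32, adjusted p = 1.40e-04) and the sodium-proton exchanger Slc9a2 by 0.88. The water channel Aqp1 fell by 1.07 and the chloride-bicarbonate exchanger Slc26a3 by 0.77 on the log2 scale.

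Of 19 PPAR-alpha and fatty acid oxidation genes, 3 were called higher (15.8%, against 4.96% of all genes tested) and 0 lower, and their median of -0.06 was near that of all genes. Those called included the transcription factor gene Creb3l3 (log2 1.32 ± 0.18) and the lipid droplet coat gene Plin2 (log2 0.80 ± 0.17).

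The secretory lineages differed in their counts. None of 15 goblet cell markers was called in either direction, and 1 had an unadjusted p under 0.05 in edgeR's test, with 0 called by DESeq2 or voom. Their median was 0.04. The mucin gene Muc2 was at 18.9 to 61 CPM against 14.9 to 37.3 CPM and Tff3 at 568 to 637 CPM against 589 to 825 CPM. Of 9 Paneth cell markers tested, 3 were called higher (33.3%, against 4.96% of all genes tested) and 0 lower, and the count was 3 in each fit without 1 library. The matrix metalloprotease gene Mmp7, which activates defensins, held 19, 23.2 and 41.4 CPM in complete media and 47.6, 55.2 and 89.5 CPM in SCM (log2 1.23 ± 0.16, adjusted p = 2.33e-06). The antimicrobial ribonuclease gene Ang4, a member of a multigene family, had a log2 fold change of 1.09 ± 0.14, and Habp2 one of 1.37 ± 0.30. Lysozyme (Lyz1), the most used marker of the lineage, was not called, at 485 to 616 CPM against 476 to 699 CPM. The defensin genes Defa17, Defa24, Defa26 and Defa30 and the gene Itln1 were not called either. The median of the Paneth cell markers was 0.19. Their summed CPM overlapped, at 3828 to 4434 in complete media and 3402 to 4608 in SCM. Among 20 enteroendocrine markers, 1 was called higher (2 without complete media replicate 4 or SCM replicate 5) and 1 lower. Either is 5.00% of the markers, which is close to the 4.96% of all genes tested called higher and above the 1.12% called lower. The hormone gene Pyy rose by 1.22 and Neurog3, the factor that commits progenitors to this lineage, fell by 0.83, from 15.2 to 24.4 CPM to 6.97 to 15.6 CPM.

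Crypt base stem cell markers did not move together. Of 18 tested, 0 were called higher and 2 lower (11.1%, against 1.12% of all genes tested), with a median of -0.01. Smoc2, a secreted calcium-binding matrix protein of the stem cell signature, held 1118, 1307 and 1392 CPM in complete media and 503, 792 and 881 CPM in SCM, without overlap (log2 -0.77 ± 0.17, adjusted p = 0.0021). Aqp4 had a log2 fold change of -0.83 ± 0.26 and lost its call without complete media replicate 3, 4 or 5 or SCM replicate 1 or 5 (adjusted p up to 0.0866), which leaves 1 member lower. The lower count was 3 without SCM replicate 3, and 1 member was called higher without complete media replicate 1. Lgr5, the R-spondin receptor that defines these cells, was not called, at 138, 204 and 292 CPM against 70.7, 140.0 and 238 CPM (log2 -0.54 ± 0.22, adjusted p = 0.11). With the replicate number as a block and the 12 libraries alone, its log2 fold change was -0.59 with an adjusted p of 3.5e-04, which passes the threshold, and with the block and all 36 libraries it was not called. It was also called lower without SCM replicate 3. Olfm4, another stem cell marker, had a positive log2 fold change of 0.44 ± 0.26 with an adjusted p of 0.31. Some members passed the test below the fold-change threshold. Upward these were Ascl2 (log2 0.51 ± 0.13, adjusted p = 0.0099), Rnf43 (log2 0.49 ± 0.13, adjusted p = 0.011) and Sox9 (log2 0.35 ± 0.09, adjusted p = 0.0079). Lrig1 did so downward (log2 -0.50 ± 0.13, adjusted p = 0.013).

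Of 16 canonical Wnt targets tested, 2 were called higher (12.5%, against 4.96% of all genes tested) and 1 lower (6.25%, against 1.12%), with a median of 0.46. Their summed CPM was 924.1 to 981.7 in complete media and 1055 to 1257 in SCM, without overlap. The feedback gene Axin2 was at 24.2 to 43.1 CPM against 22 to 41.3 CPM (log2 -0.16 ± 0.17, adjusted p = 0.62). Cd44, an adhesion receptor and Wnt target, rose by 0.80 with no overlap between the media. Ascl2 and Rnf43, described above, and Tcf7 (log2 0.47 ± 0.15, adjusted p = 0.034) passed the test upward below the fold-change threshold. Nkd1 (log2 1.94 ± 0.63) and Apcdd1 (log2 -1.22 ± 0.39), both Wnt inhibitors, each lost the call in 7 of the 12 fits without 1 library, with adjusted p up to 0.09 and 0.105, so that counts of 1 higher and 0 lower occurred. For Nkd1 these were the fits without complete media replicate 1, 4, 5 or 6 or SCM replicate 3, 4 or 5, and for Apcdd1 those without complete media replicate 3, 4 or 6 or SCM replicate 1, 2, 3 or 4.

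The receptors at the center of the study were measured in the organoids themselves, and the protein secreted by the fibroblasts is not visible in these data. Ptk7, a catalytically inactive receptor kinase of noncanonical Wnt signaling, held 9.15, 11.3 and 14.1 CPM in complete media and 4.62, 13.9 and 18.1 CPM in SCM (log2 0.16 ± 0.25, adjusted p = 0.75). Fzd7, a Wnt receptor of intestinal stem cells, was at 32, 44.4 and 62.9 CPM and 12.4, 34 and 36.2 CPM (log2 -0.60 ± 0.22, adjusted p = 0.062). It missed the threshold without a block and passed it with the replicate number as a block, at a log2 fold change of -0.63 and an adjusted p of 0.0051 with all 36 libraries. It was also called lower by DESeq2 and voom, and by edgeR without complete media replicate 2 or SCM replicate 2. Wnt5a, a noncanonical ligand, was below the filter, with at most 0.586 CPM in complete media and 0.196 CPM in SCM. Of 22 noncanonical Wnt and planar polarity genes, the polarity gene Vangl1 was the 1 called higher, at 14 to 25.9 CPM against 34 to 57.7 CPM (log2 1.04 ± 0.20, adjusted p = 6.07e-04), and 0 were called lower. This is 4.55% of the list, close to the 4.96% of all genes tested. The higher count was 2 without complete media replicate 1 or 3 or SCM replicate 5, and 1 was lower without complete media replicate 2 or SCM replicate 2. Notch1 had a log2 fold change of -0.56 ± 0.19 with an adjusted p of 0.047, under the fold-change threshold, and was called lower in 6 of the 12 fits without 1 library (complete media replicates 1, 2, 5 and 6, SCM replicates 4 and 5).

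None of 18 S phase and 18 G2/M genes was called by edgeR, DESeq2 or voom. In edgeR's test 9 and 4 of them had an adjusted p under 0.05 at a size under the fold-change threshold, and 11 and 8 an unadjusted p under 0.05. The log2 fold change was above 0 for 3 of the S phase and 0 of the G2/M genes, and the medians were -0.19 and -0.19. Summed CPM of the S phase genes was 2680 to 2794 in complete media and 2248 to 2493 in SCM, and of the G2/M genes 3042 to 3493 and 2640 to 2917, so neither sum overlapped between the media. Mcm2, a subunit of the replicative helicase, passed the test at a small size (log2 -0.28 ± 0.07, adjusted p = 0.0098), and the proliferation marker Mki67 did not (log2 -0.23 ± 0.11, adjusted p = 0.20). The cell cycle inhibitor Cdkn1a (p21) passed the test at 175 to 303 CPM against 272 to 404 CPM without reaching the fold-change threshold (log2 0.52 ± 0.13, adjusted p = 0.0071) and reached it without complete media replicate 1, and the p53 target Plk2 rose by 0.73. Of 17 p53 and senescence genes tested, 2 were called higher (11.8%, against 4.96% of all genes tested) and 0 lower. Their median was 0.00, and 9 of the 17 had a log2 fold change above 0. Sesn2 of this list passed the test downward below the fold-change threshold (log2 -0.39 ± 0.10, adjusted p = 0.013). The higher count was 1 to 3 in the fits without 1 library.

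**Figure D3:**
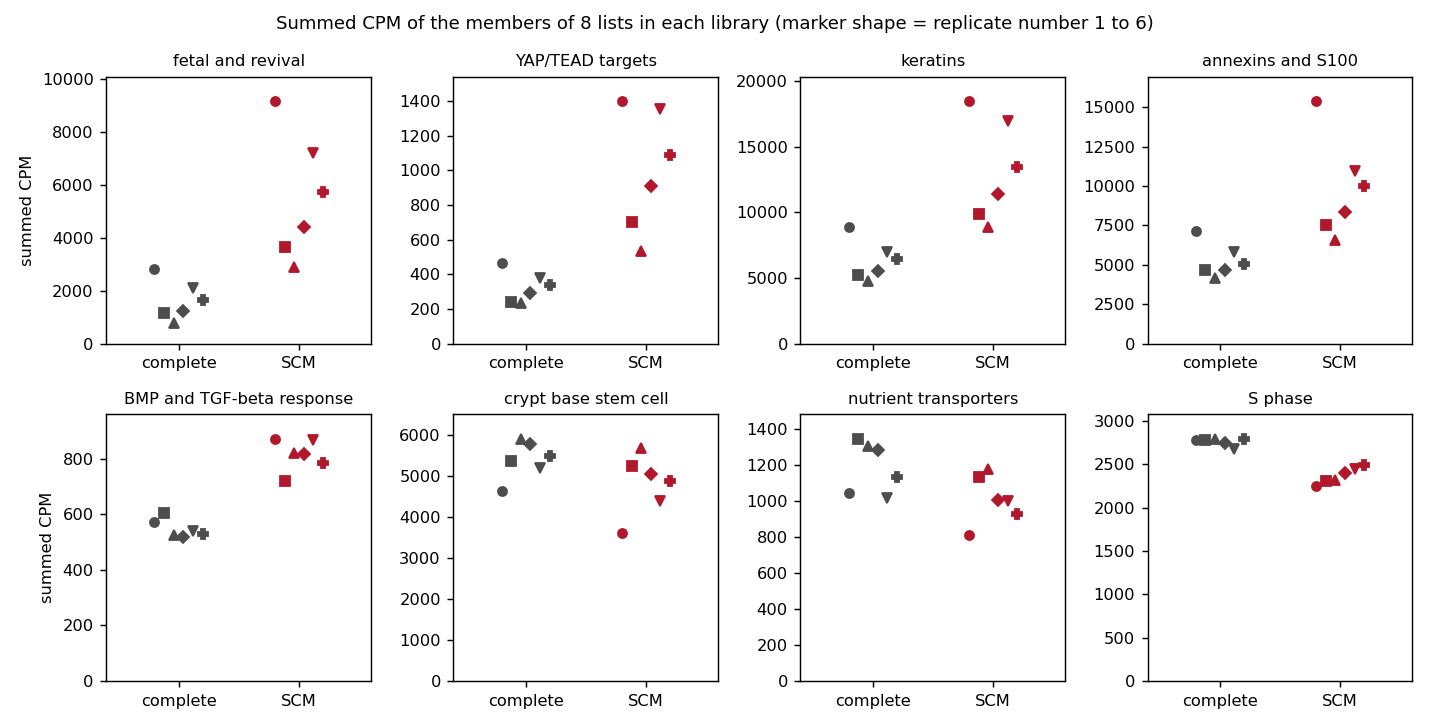
Each panel plots the summed CPM of 1 of 8 gene lists on an axis from 0, with 1 point per library for the 6 libraries of complete media and the 6 of SCM, and marker shapes for replicate numbers 1 to 6. Fetal and revival genes lie at 763 to 2823 CPM in complete media and at 2906 to 9146 CPM in SCM, and the S phase sums lie at 2680 to 2794 CPM and at 2248 to 2493 CPM.

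Of 18 transcription factors of intestinal identity, 2 were called higher, Creb3l3 and Onecut2, and 1 lower, which is 11.1% and 5.56%. The higher count was 1 without complete media replicate 1, 2, 3 or 4 or SCM replicate 1. The lower gene was Vdr, the vitamin D receptor, which fell from 257 to 357 CPM to 127 to 199.97 CPM (log2 -0.81 ± 0.15, adjusted p = 2.65e-04). The caudal factor Cdx1 passed the test below the fold-change threshold (log2 -0.30 ± 0.09, adjusted p = 0.023), and Cdx2 did not pass it. In metabolism and transport, the aldehyde dehydrogenase gene Aldh1b1 fell from 1469 to 1903 CPM to 618 to 1116 CPM (log2 -0.86 ± 0.18, adjusted p = 0.001), the zinc and manganese transporter Slc39a8 from 117 to 183 CPM to 46.2 to 89.9 CPM (log2 -1.19 ± 0.19, adjusted p = 3.44e-05), and Cyp2d26 by 0.74 on the log2 scale. The endoplasmic reticulum chaperone gene Hspa5 was lower by a small and even amount, at 1266 to 1343 CPM against 1025 to 1157 CPM (log2 -0.26 ± 0.06, adjusted p = 0.0017), and 0 of 21 unfolded protein and integrated stress genes was called by edgeR, DESeq2 or voom, although 10 had an adjusted p under 0.05 at a size under the fold-change threshold in edgeR's test and 11 an unadjusted p under 0.05. Without complete media replicate 4 or 6 or SCM replicate 3, 1 was called lower, and without SCM replicate 5 it was 2. Me1 was the 1 gene called higher of 13 for fatty acid synthesis (7.69% of them; log2 0.78 ± 0.20), and 0 of 18 for cholesterol synthesis was called by edgeR, DESeq2 or voom, with 4 at an adjusted and 8 at an unadjusted p under 0.05 in edgeR's test. Egln3, a hypoxia-induced oxygen sensor, rose by 1.14. In mucosal defense, Lypd8, a secreted protein that keeps flagellated bacteria from the epithelium, held 222, 249 and 261 CPM in complete media and 472, 521 and 581 CPM in SCM. Its log2 fold change was 1.10 ± 0.09, with the lowest adjusted p of all genes named, 9.46e-11. Lgals3 (galectin-3) rose by 2.02 and Reg4 by 0.78, and the lysosomal proteases Ctsh and Ctsl by 1.20 and 1.04. Of 16 mucosal defense genes, 3 were called higher (18.75%) and 0 lower, with members from -1.54 to 2.02 and a median of 0.28. Of 19 lysosome genes, 2 were called higher (10.5%) and 0 lower, with members from -0.58 to 1.20 and a median of 0.07. None of 69 cytosolic ribosomal protein genes was called in edgeR's fit of all libraries, in which 11 had an unadjusted p under 0.05. DESeq2 and voom with TMM scaling each called 1 higher, and edgeR called 2 without SCM replicate 4 and 1 without SCM replicate 5.

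The comparison of SCM with QCM shares the SCM libraries with the one above, so its values are given side by side and not as separate evidence. It called 118 genes higher in SCM (0.761% of those tested) and 22 lower (0.142%). Of the 125 genes named above that were called against complete media, 91 were not called against QCM and 34 were. Fabp1 held 307, 405 and 493 CPM in QCM, and its log2 fold change, SCM minus QCM, was 0.33 ± 0.15 (adjusted p = 0.26). Alpi (0.40 ± 0.16), Slc46a1 (0.25 ± 0.16), Irf1 (0.19 ± 0.18) and Itgb5 (0.34 ± 0.18) likewise had small log2 differences from QCM that were not called. Other genes differed from both references. Clu held 96.1, 169 and 309.8 CPM in QCM and had a log2 fold change, SCM minus QCM, of 2.66 ± 0.42 (adjusted p = 6.16e-04). Tnfrsf11b had one of 1.66 ± 0.24, Thbs1 of 1.65 ± 0.29, Skil of 1.13 ± 0.18, Id1 of 0.96 ± 0.16, F3 of 1.77 ± 0.42, Ccn1 of 1.24 ± 0.27 and P2rx2 of 2.65 ± 0.42, all called. Of the fetal and revival genes, 4 of 14 were called higher against QCM, of the YAP/TEAD targets 3 of 19, of the annexins and S100 proteins 3 of 21, of the keratins 1 of 11, and of the enterocyte markers 0 of 20. The medians of the first 4 lists were 1.12, 0.89, 0.78 and 0.87 on the log2 scale against QCM.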

How the data were processed

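RNA of the organoids was extracted with RNeasy Plus and amplified from 2 ng with the SMART-Seq v4 kit, which does not mark strand, before Nextera XT libraries were made. The authors filtered and aligned reads with HTSeqGenie and GSNAP (version 2013-11-01 in the submitters' processing notes) against the mouse genome mm10 and counted reads within coding sequences. They deposited the counts per gene of each library as whole numbers without normalization, and these counts, for 52636 genes, are the values used here. Reads of overlapping or antisense genes and of near-identical gene copies may be shared. A table of the whole series repeats the same counts and was not used.

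All fits were made in R (version 4.3.3), with edgeR (4.0.16) as the main tool and DESeq2 (1.42.0) and limma (3.58.1) as alternatives. The quasi-likelihood test of edgeR was fitted to all 36 libraries with 6 condition means, after filterByExpr and TMM scaling. The standard error (SE) of a log2 fold change is its size divided by the square root of F. CPM is the count scaled to the TMM-adjusted total of its library. It was not divided by gene length, so levels were compared between libraries and not between genes.

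The series' design names 6 mice with origin numbers 1 to 6, and each condition has replicates 1 to 6. The labels do not state that the numbers are the same, but they were taken to pair the libraries. The correlations of deviations from the condition means were 0.170, 0.00936, 0.174, 0.0372, 0.0582 and 0.000303 for the pairs 1 to 6, so over all genes 2 of the 6 were over 0.1. Sums of the fetal and revival genes put the numbers in 1 order in 4 of the media, and those of S phase genes did not. The fit without this block is the main one, since the study names no block, and blocked values stand beside results they change. The fits that each left out 1 library had no block either, so calls lost in them were not examined with the numbers paired. With the block and all 36 libraries, all 125 of the genes named above that were called kept their call. The p-values measure the spread between these cultures.

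The genes named are the 12 rising and 12 falling protein-coding genes with the largest change among those called, without overlap and with a mean log2 CPM over 1, then first-listed and most changed members of the lists, and Ptk7, Wnt5a and Fzd7. A few genes that this rule takes are not reported here. Lists overlap and received no test of their own. The comparison, lists and rules were chosen with earlier results of these data known.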

Additional observations from a re-analysis of the deposited data

Results flagged for a closer look

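Of 292 groups of 6 libraries examined for the genes named, 18 held a library whose gap to the nearest other was over 0.625 of the group's range (Dixon's 95% value), while chance flags about 1 in 20. SCM replicate 1 was the highest library 5 times, for Aldh1a3 (27.9 CPM), Ly6a (487.7 CPM), S100a6 (2317 CPM), Sprr2a3 (323.6 CPM) and Cnfn (22.1 CPM). In SCM, replicate 5 was high for Itgb1 (454.3 CPM) and low for Tnfrsf11b (29.7 CPM), and replicate 6 was the only library with counts of Wnt5a (0.196 CPM). In complete media, replicate 1 was high for Cnfn (3.55 CPM), Actb (2038 CPM) and Hbegf (21.2 CPM) and low for Slc39a8 (116.7 CPM). Replicate 3 was high there for Usp2 (24.8 CPM) and Id1 (14.1 CPM), replicate 5 high for Ctse (1.09 CPM) and low for Ace (9.82 CPM), and replicate 6 high for Skil (20.4 CPM) and low for Neurog3 (15.2 CPM).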

How the results depend on the processing

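The 768 higher and 174 lower genes became 902 and 231 with the replicate number as a block, 814 and 217 with the block and the 12 libraries alone, and 737 and 177 with these libraries and no block. Of the genes named, the block changed the calls of Fzd7 and Lgr5 alone. With no fold-change threshold 1152 genes were higher and 690 lower, with a fold change over 2 the counts were 481 and 43, with glmTreat 199 and 11, and with QCM as the reference 118 and 22. Quantile-normalized voom called 550 higher and 297 lower. Leaving out 1 library gave 547 to 841 higher and 112 to 215 lower. Over all settings, 3465 of the values of the 145 named genes tested kept direction and side of the threshold, 242 lost the call, 23 gained it and 8 turned. Those that turned were Yap1, at 0.021 without complete media replicate 5 and 0.047, 0.030 and 0.024 without SCM replicates 1, 5 and 6 (range of the 12 such fits -0.12 to 0.047), and Ptk7 (-0.018) with quantile-normalized voom. Against QCM, Lyz1 (-0.060), Tff3 (-0.23) and Hspa5 (0.013) turned. None of the 8 values was called, and the cause was not tested. Genes under about 1 CPM in complete media rest on a handful of counts per library, so the size of their change is loosely fixed.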

Other observations

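For some lists, though not for others, the replicate numbers fell into the same order in several media. By summed CPM of the fetal and revival genes, the order from highest to lowest was 1, 5, 6, 4, 2, 3 in complete media, in SCM, in QCM and in SCM with anti-Ptk7. With added Wnt5a it was 1, 5, 6, 4, 3, 2, and with Wnt5a and anti-Ptk7 it was 1, 5, 4, 6, 2, 3. YAP/TEAD targets gave the order 1, 5, 6, 4, 2, 3 in the same 4 media. For BMP and TGF-beta response genes the order was 2, 1, 5, 6, 3, 4 in complete media and 1, 5, 3, 4, 6, 2 in SCM, and for S phase genes it was 3, 6, 1, 2, 4, 5 and 6, 5, 4, 3, 2, 1. Within a medium the fetal sum differed 3.70-fold between the extreme libraries of complete media and 3.15-fold between those of SCM. The ratio of SCM to complete media at the same number ran from 3.14 to 3.81 for fetal and revival genes, 2.26 to 3.61 for YAP/TEAD targets and 1.87 to 2.42 for keratins, each narrower than the spread within either medium. For BMP and TGF-beta response genes it ran from 1.18 to 1.61, which is wider than the 1.17-fold and 1.21-fold spreads within complete media and SCM, and for S phase genes from 0.810 to 0.911, against 1.04-fold and 1.11-fold. Crypt base stem cell markers ran the other way at one end, with replicate 1 lowest in each of the 6 conditions. The lists share members, these orders were noticed after the values were seen, and no test was made of them.

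The counts of further lists, some of which appear above too, are to be read against 4.96% of all genes tested called higher and 1.12% lower. Of 10 tuft cell markers 1 was called higher and 0 lower, of 6 M cell markers 1 and 0, of 13 Notch pathway genes 1 and 0, of 17 p53 and senescence genes 2 and 0, and of 20 glycolysis and hypoxia genes 2 and 0. Of 29 xenobiotic enzymes and efflux pumps 1 was higher and 3 lower, of 18 clock genes 1 and 2, of 14 zinc genes 0 and 1, of 16 mucosal defense genes 3 and 0, and of 19 lysosome genes 2 and 0. Of 76 nuclear and 10 mitochondrial genes of oxidative phosphorylation, 2 and 1 were higher and 0 lower. Many of these small counts moved by 1 or 2 genes when a library was left out, and without SCM replicate 1 the higher counts were 0 for Notch pathway genes, 1 for glycolysis and hypoxia genes, and 1 and 0 for nuclear and mitochondrial genes of oxidative phosphorylation. With the replicate number as a block and all libraries, 2 tuft cell markers and 2 interferon and antigen presentation genes were called higher, and 1 noncanonical Wnt gene lower.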
